A study of Homo sapiens with 12 samples.

Results

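HCT116 cells, an established human colon carcinoma line, were compared after serum starvation with and without a knockdown of PFDN2. The knockdown group (siPFDN2) received a small interfering RNA (siRNA) against PFDN2, and the control group (siControl) received a control siRNA. Both groups were transfected with Oligofectamine, were starved for 48 h from 24 h after the siRNA, and were taken without any serum being given back. The 4 libraries, 2 in each group, were chosen by their titles among the 12 RNA-seq libraries of the study. The other 8 libraries came from the same cells given either siRNA and then 90 min of serum, or an siRNA against PFDN5 at both times, and they enter the fits for the spread between libraries and the mean from which GC trends were taken. The 4 of them with these siRNAs after serum are also compared with each other below. Each group is 1 cell line with 1 siRNA sequence, so effects of the duplex on RNAs other than its target cannot be told apart from effects of less PFDN2 within this comparison. The labels do not say that replicates came from separate cultures, so the p-values measure only the spread between these libraries.

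Prefoldin is a chaperone built of several small subunits, PFDN2 among them, that catches unfolded actin and tubulin as they leave the ribosome and hands them to the chaperonin TRiC, where they fold. Prefoldin subunits have also been described in the nucleus, with roles in transcription and splicing, which is why reads inside and outside exons are set side by side here. An siRNA guide strand leads the Argonaute protein to a fully matching messenger RNA, which is then cut. The same guide can lower other messenger RNAs whose 3′ untranslated regions (UTRs) match only its seed, the stretch near its 5′ end, much as a microRNA does.

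The 2 guide strands are shown because both groups received a duplex and both seeds bear on the comparison. They are the complements of the sense strands in the labels, read 5′ to 3′, with the seed (bases 2 to 8) in capitals.
siPFDN2 guide: uGUAUCGAucacuaggcug
siControl guide: uCGAAGUAuuccgcguacg
The siPFDN2 sense strand was found whole in the PFDN2 transcript ENST00000368010.3, at bases 247 to 265 of its 677, inside the coding sequence. The match crosses an exon junction, with 3 bases in exon 2 and 16 in exon 3, and spans chr1:161102156-161102289 on the minus strand of GRCh38. With 5 flanking bases on either side and the match in capitals, the site in the spliced transcript reads as follows.
PFDN2 site: gagcaCAGCCTAGTGATCGATACActgaa
An RNA that still holds the intron between these exons does not carry the whole site.

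The 4 libraries held between 85996195 and 101654340 counts over gene bodies and between 73101382 and 85255660 over exons. Replicate 2 of siPFDN2 stood apart from the rest. Its ratio to the mean of the 12 libraries followed the GC content of the genes, with a Spearman rho across genes of 0.81, while in the other 11 libraries rho lay between -0.46 and 0.13. In gene-body counts relative to siControl, the median log2 ratio in this library climbed from -0.80 in the genes poorest in GC to 0.75 in the richest, among 5 equal bins, and replicate 1 went from 0.06 to -0.01 over the same bins. Each library's GC trend was therefore taken out before testing. Replicate 2 then ran from -0.14 to 0.04, rho was 0.13, and the SD between the siPFDN2 replicates fell from 0.68 to 0.39 on the log2 scale, still above the 0.12 to 0.30 of the other 5 groups. All 12 colon epithelial markers, such as EPCAM and KRT8, were detected in each of the 4 libraries. With no GC correction their summed level lay between 2409 and 3220 CPM (counts of a gene relative to a library of 1e+06 counts), the highest in replicate 2 of siPFDN2. That of leukocyte markers, also uncorrected, lay between 21.7 and 46.3 CPM, most of it from CSF1R. Fibroblast markers, on the same scale, summed to 16.4 CPM in replicate 2 of siPFDN2, most of it from COL1A1. In the other libraries compared they summed to between 4.42 and 5.63 CPM. Endothelial markers lay between 4.13 and 5.91 CPM.

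**Figure D1:**
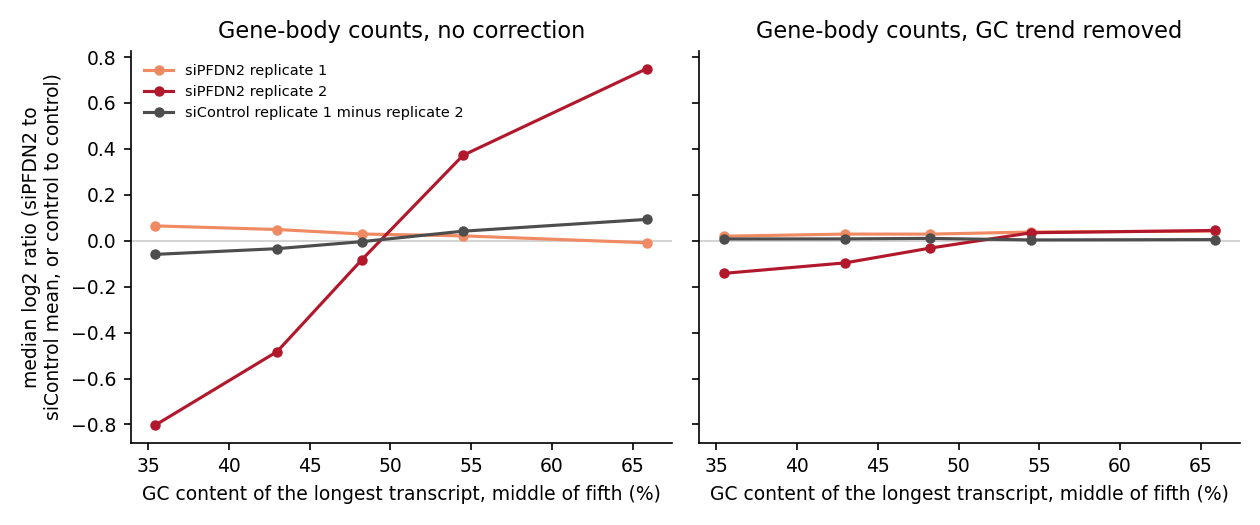
Median log2 ratio of gene-body counts (y axis) against GC content of the longest transcript, at the middle of 5 equal bins of genes (x axis, percent), before correction (left) and with the GC trend removed (right), for each siPFDN2 library relative to the siControl mean and for siControl replicate 1 relative to replicate 2. Before correction replicate 2 of siPFDN2 climbs from -0.80 to 0.75 while the other lines stay near 0, and after correction it runs from -0.14 to 0.04.

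PFDN2 (ENSG00000143256) was lower in both knockdown libraries. Its exon level was 6.60 and 5.60 CPM in siPFDN2 against 11.1 and 11.2 CPM in siControl, with the GC trend removed. The groups did not overlap, and the siPFDN2 mean of 6.10 ± 0.709 CPM (SD, n = 2) was 54.6% of the siControl mean of 11.2 ± 0.109 CPM. In edgeR's quasi-likelihood test this was a log2 fold change of -0.88 (SE 0.14, adjusted p = 0.0274), where adjusted means by Benjamini-Hochberg over all genes tested. Without the GC correction it was -0.75 (adjusted p = 0.359). The call was lost without replicate 1 or 2 of siControl (adjusted p = 0.173 and 0.197), of siPFDN5 before serum (0.0687 and 0.0677) or of siPFDN2 after serum (0.0569 and 0.067), with log2 fold changes from -0.89 to -0.82. Estimated counts of the coding transcript were 482 and 589 in siPFDN2 against 854 and 949 in siControl. Counts over the whole gene body, introns included, differed less, at 7.62 and 7.24 CPM against 11.4 and 11.3 CPM, a log2 fold change of -0.61 (SE 0.12, adjusted p = 0.135). The part of the gene-body counts outside PFDN2 exons, with no GC correction, was 2.20 and 3.18 CPM of the gene-body total in siPFDN2. It was 2.42 and 2.14 CPM in siControl, so outside exons the groups overlapped. PFDN2 overlaps NIT1 in the annotation and the counting used no strand, so some of these counts may belong to NIT1.

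**Figure D2:**
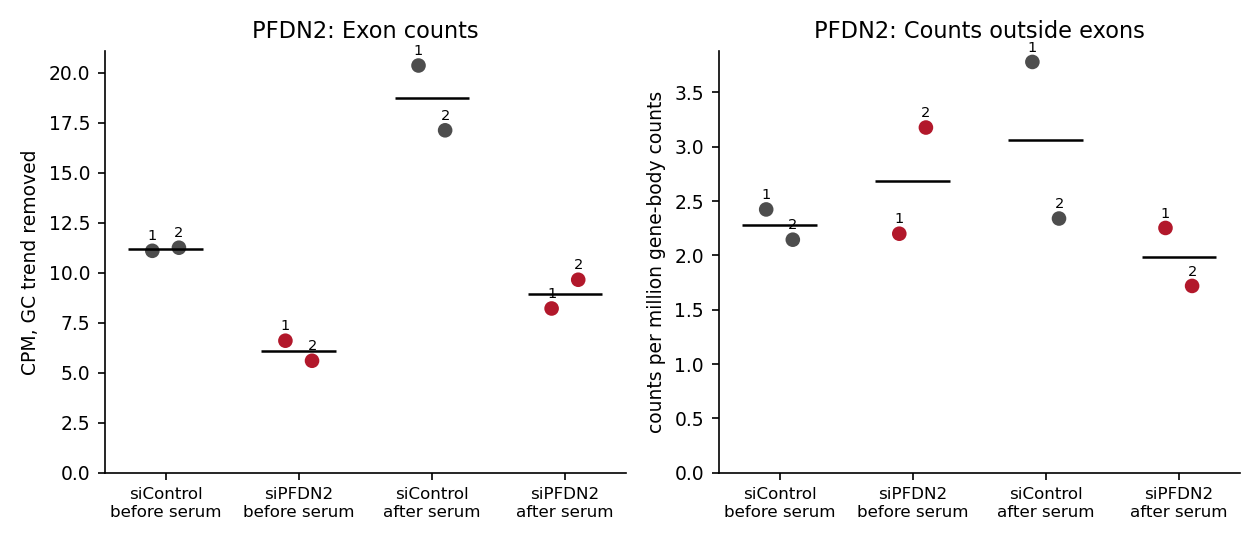
PFDN2 in 8 libraries (points, numbered by replicate, with bars at group means), before and after serum. The left panel shows exon CPM with the GC trend removed. The right panel shows counts outside exons as CPM of the gene-body total, with no GC correction. Before serum exon values are 6.60 and 5.60 CPM in siPFDN2 against 11.1 and 11.2 CPM in siControl, while values outside exons overlap between these groups.

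In exon counts, 29 genes rose and 72 fell at an adjusted p under 0.05, out of 24889 genes tested (edgeR, GC trend removed). That is 0.406% of the genes tested, 0.117% higher and 0.289% lower. Of the 72 that fell, 44 fell by at least 1.5-fold and 5 by at least 2-fold, and the largest drop was 2.24-fold. Of the 29 that rose, 15 rose by at least 1.5-fold and 3 by at least 2-fold, up to 2.74-fold. At an unadjusted p under 0.05 there were 4008 genes (16.1%). All 101 had both siPFDN2 libraries on 1 side of both siControl libraries, as did 19% of all genes tested on the higher side and 20% on the lower side. In CPM with no GC correction this still held for 25 of the 29 and 65 of the 72. The calls came from these same libraries, so the separation largely follows from how the 101 were picked.

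The count of 101 rests on the correction and on how the spread was pooled. With no GC correction edgeR called 0 genes, and 3451 (13.9%) had an unadjusted p under 0.05. A fit to the 4 libraries alone called 0, with 1399 at an unadjusted p under 0.05. The number of calls also changed widely with 1 of the 4 libraries compared left out, which leaves 1 library in a group. Without replicate 1 of siPFDN2, only the library with the strong GC trend stood for the knockdown. All 101 genes kept their sign in that fit and in the fit without replicate 2 of siPFDN2. Each library of the siPFDN5 group before serum left 11 when removed, those of siPFDN2 after serum 13 and 7, and those of siPFDN5 after serum 27 each. An exact permutation test of 1 gene over 2 against 2 libraries cannot give a two-sided p under 0.333. Each of the 101 genes kept its sign in all 24 alternatives tried on exon counts. The alternatives reuse the libraries that picked these genes, in which the groups did not overlap, so kept signs add no separate support. DHRS2, MRC2 and NEURL1B were called in 19 of the 24, more often than any other gene.

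MRC2, an endocytic receptor that takes up collagen, stood at 16.4 and 17.8 CPM in siPFDN2 against 33.9 and 37.3 CPM in siControl. Its drop on the log2 scale was -1.06 (SE 0.10, adjusted p = 0.00386). With no GC correction it was -0.57, from 15.6 and 32.2 CPM against 34.8 and 36.2 CPM, where replicate 2 of siPFDN2 lay just below the controls. The gene lies at chr17:62627401-62693597, and AC080038.3, a transcript that overlaps it and fell by 0.87 on the log2 scale (0.38 with no correction, where its groups overlapped), cannot be told apart from it without strand. LTBP1, which holds latent TGF-beta in the extracellular matrix, stood at 4.56 and 4.09 CPM against 7.75 and 7.74 CPM (log2 fold change -0.84). SULF2, a secreted sulfatase that trims heparan sulfate, fell by 0.70 on the log2 scale, and PXDN, a matrix peroxidase, fell by 0.51. For PXDN the change was -0.27 with no GC correction, with overlapping groups. ADAMTS2, which trims procollagen, fell by 0.92. PMEPA1, an inhibitor of TGF-beta signalling, had the largest drop, -1.16, at levels of 0.707 and 0.603 CPM against 1.39 and 1.53 CPM.

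USP25, a deubiquitinase, stood at 29 and 23.1 CPM against 49.4 and 50.6 CPM, a log2 fold change of -0.94 (SE 0.10, adjusted p = 0.00386). USP46, another deubiquitinase, fell by 0.55 on the log2 scale. NEURL1B, a ubiquitin ligase that acts on Notch ligands, stood at 10.7 and 10.2 CPM against 18.4 and 19.4 CPM (log2 fold change -0.86, and -0.54 with no GC correction). TRIM2, a ubiquitin ligase, stood at 98.5 and 89.1 CPM against 137 and 146 CPM (-0.59). Both knockdown libraries lay below both controls in each of these 4 genes. RNF220, another ubiquitin ligase, was called higher, with a log2 fold change of 0.61 (adjusted p = 0.0477).

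NEBL, which encodes the actin-binding protein nebulette, was lower, at 30.9 and 29.5 CPM against 47.6 and 48.9 CPM (log2 fold change -0.68). AXIN2, a scaffold and feedback inhibitor of Wnt signalling, stood at 19.7 and 21.0 CPM against 37.7 and 28.4 CPM, a log2 fold change of -0.70 (SE 0.13, adjusted p = 0.0443) with controls that differed between themselves. FZD5, a Wnt receptor, fell by 0.53 on the log2 scale, and DRAXIN, a secreted guidance protein that also antagonises Wnt signalling, stood at 3.49 and 4.14 CPM against 7.07 and 7.19 CPM (-0.90). SESN3, a sestrin that restrains mTORC1, stood at 22.1 and 18.7 CPM against 36.4 and 34.5 CPM (-0.80), and DDIT4L, which also restrains mTOR signalling, fell by 0.71. CD276, a surface protein of the B7 family, stood at 37.7 and 41.7 CPM against 57.5 and 57.2 CPM (-0.53). With no GC correction CD276 was at 36.3 and 68.9 CPM against 58.8 and 55.8 CPM, so the groups overlapped and the log2 fold change was -0.12. Among transporters and enzymes, SLC2A3, a glucose transporter, fell by 1.04, and ABCC2, a drug and conjugate efflux pump, stood at 149 and 145 CPM against 244 and 206 CPM (-0.62). The most abundant lowered gene was NUCKS1, which encodes a DNA-binding nuclear protein, at 407 and 383 CPM against 601 and 583 CPM (-0.58).

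DHRS2, a short-chain dehydrogenase, rose most, to 25.4 and 29 CPM from 10.8 and 9.08 CPM in the controls. This amounted to 1.46 on the log2 scale (SE 0.15, adjusted p = 0.00386), and both knockdown libraries lay far above both controls. IRS1, the adaptor that carries signals from the insulin and IGF receptors, stood at 192 and 266 CPM against 129 and 132 CPM (0.81). HMGA2, a chromatin architectural protein, stood at 269 and 329 CPM against 174 and 185 CPM (0.74). HMGA2 with no GC correction was at 280 and 202 CPM against 173 and 191 CPM (0.41), so the order of the knockdown replicates turned, while both stayed above the controls. FOSL1, an AP-1 subunit, stood at 32.3 and 41.4 CPM against 21.7 and 23.2 CPM (0.72, and 1.13 with no GC correction), and EIF3K, a subunit of translation initiation factor eIF3, at 90.1 and 92.2 CPM against 60.4 and 60.1 CPM (0.60).

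CDCA8, the chromosomal passenger protein borealin, stood at 44.8 and 49.1 CPM against 31.4 and 29.4 CPM and rose (log2 fold change 0.63). CENPE, a kinetochore motor, stood at 57.8 and 62.5 CPM against 40.4 and 46.0 CPM (0.48). CENPE with no GC correction was at 61.2 and 33.6 CPM against 39.5 and 47.6 CPM, with replicate 2 of siPFDN2 below both controls and a log2 fold change of 0.12. NCAPH, a condensin subunit, had a log2 fold change of 0.55, and SGO2, a protector of centromeric cohesion, of 0.48, which was 0.13 with overlapping groups when no correction was made. GINS1, a subunit of the replicative helicase, stood at 47.0 and 63.6 CPM against 35.2 and 34.2 CPM (0.67, and 0.40 with no correction). PARP2, a DNA repair enzyme, had a log2 fold change of 0.55. HNRNPA1, a splicing regulator, had a log2 fold change of 0.68 and its processed copy HNRNPA1P48 of 1.04, and reads shared by near-identical copies make both uncertain.

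**Figure D3:**
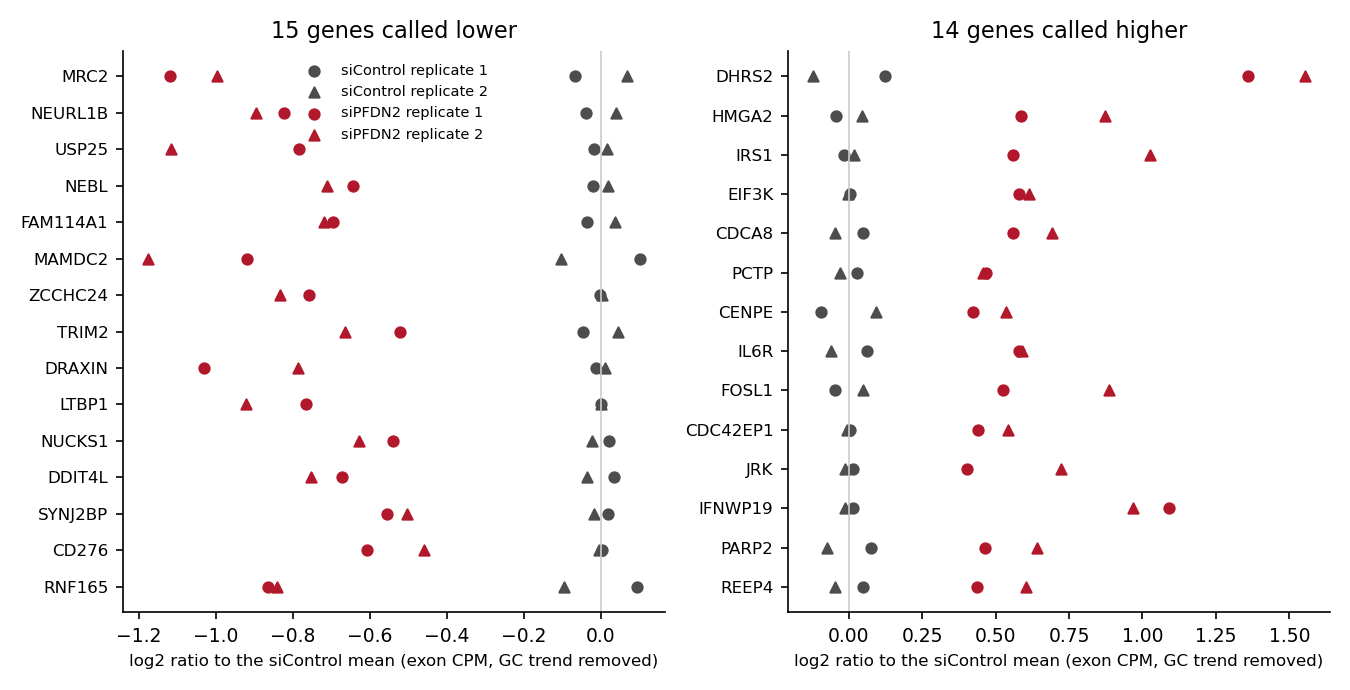
Log2 ratio of exon CPM to the siControl mean (x axis, GC trend removed) for 15 of the genes called lower and 14 of those called higher (rows), taken among those with the smallest p, with 1 point per library. In every row both siPFDN2 points lie on 1 side of both siControl points.

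The seed of the siPFDN2 guide pairs with TCGATAC in a transcript, so this 7-base string was sought in the longest annotated 3′ UTR of each gene, on the transcript's own strand. It was present in 12 of the 68 lowered genes with an annotated UTR (17.6%) and in 0 of the 26 raised genes with one. Among all 14845 genes tested with a UTR it was present in 146 (0.983%). The string for the siControl seed, TACTTCG, was present in 1 of the 68 and 2 of the 26, against 1.79% of the genes tested. Such a match is a description of letters in the annotation and not a measured site.

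Windows of 19 bases that end opposite the guide's first base are shown for genes on this list, because the rest of each window tells how far pairing could extend past the seed. Capitals mark the 7-base string, coordinates are GRCh38, and the letters were read 5′ to 3′ from the annotated transcripts.
FAM114A1, chr4:38945380-38945398, plus strand: cagctgcatgtTCGATACa
ZCCHC24, chr10:79383119-79383137, minus strand: gaagctataatTCGATACa
LTBP1, chr2:33398979-33398997, plus strand: tgaaaaagtctTCGATACa
NUCKS1, chr1:205714547-205714565, minus strand: ctggggtaaatTCGATACa
SMTNL2, chr17:4607817-4607835, plus strand: ctctggtgaatTCGATACa
STOX2, chr4:184017305-184017323, plus strand: ttctgtctcatTCGATACa
FZD5, chr2:207763067-207763085, minus strand: gtccagggcatTCGATACt
PCNP, chr3:101594228-101594246, plus strand: atttaattataTCGATACa
LCLAT1, chr2:30640800-30640818, plus strand: tgaatgtaattTCGATACt
TXNDC5, chr6:7882477-7882495, minus strand: aactttatgtgTCGATACt
FAM114A1 could pair at 14 of the 19 guide positions, the most in these genes, and LCLAT1 at 7, the fewest. The TXNDC5 window also lies in the readthrough gene BLOC1S5-TXNDC5, so the 12 genes hold 11 separate windows. NIPAL2 is the gene not shown.

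Before serum these 12 genes had log2 fold changes from -0.97 to -0.47, with a median of -0.72. FAM114A1 stood at 31.1 and 30.6 CPM in siPFDN2 against 49.0 and 51.6 CPM in siControl, a log2 fold change of -0.71 (SE 0.08, adjusted p = 0.00394). ZCCHC24 stood at 9.19 and 8.71 CPM against 15.5 and 15.6 CPM (log2 fold change -0.80). In both genes the knockdown replicates were closer to each other than to any control. After serum, in 4 other libraries, all 12 were lower in both siPFDN2 libraries than in both siControl libraries, with log2 fold changes from -0.72 to -0.27 and a median of -0.40. The 60 lowered genes without the string had a median of -0.64 before and -0.37 after serum. Of these 60, 54 were also below both controls after serum, as were 25.5% of all genes tested.

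Across genes of at least 3 log2 CPM with an annotated UTR, the 113 with the siPFDN2 string had a median log2 fold change of -0.12, set beside -0.00 over all 10123. Replicate 1 gave -0.13 and replicate 2 -0.12 for these 113 genes, and the median after serum was -0.11. The 194 with the siControl string had a median of 0.04. Of the 113, 10 fell and 0 rose, and of all 10123, 54 fell and 26 rose. UTRs with the siPFDN2 string were longer, with a median of 3094 bases against 1723, and their part in the shift was not tested.

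Over gene bodies, with introns counted, 5 of 27915 genes passed (0.0179%), and 3400 (12.2%) had an unadjusted p under 0.05. DHRS2 and IRS1 rose, and MRC2, FAM114A1 and TMC8 fell. Without the GC correction edgeR called 0, with 3156 at an unadjusted p under 0.05. Removing 1 of the other groups' libraries gave between 0 and 19 calls. All 5 genes kept their sign with either siPFDN2 library or either siControl library removed, which leaves 1 library in a group. In each of them both siPFDN2 libraries lay on 1 side of both controls, so these signs follow from how the genes were picked. TMC8, a multispan membrane protein, stood at 6.93 and 6.36 CPM over its gene body against 12.1 and 12.5 CPM, a log2 fold change of -0.89 (adjusted p = 0.0475). In its exons the log2 fold change was -0.01 (adjusted p = 0.976). With no GC correction, counts outside exons made up 49.4% and 33.4% of its gene-body counts in siPFDN2. In siControl they made up 67.6% and 69.3%, and this gene overlaps TMC6. All 101 genes called in exon counts had the same sign over gene bodies, which contain the same exon counts, and so did 91.6% of 12127 genes measured in both.

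The same siRNAs were compared in the 4 libraries taken 90 min after serum, which share no library with the comparison before it. Of the 72 lowered genes, 68 also had a negative log2 fold change after serum, as did 52.3% of all genes tested. In 66 of the 72 both siPFDN2 libraries were again below both controls, against 25.5% of all genes tested. Of the 29 raised genes, 22 also had a positive log2 fold change after serum (47.7% of all genes tested), and 17 were again above both controls (25.8% of all genes tested). The median went from -0.64 to -0.40 in the lowered genes and from 0.60 to 0.16 in the raised genes. After serum 11 genes fell and 0 rose (0.0442% of 24889), and 7 of the 11 were among the 72, namely MRC2, NEBL, MAMDC2, ZCCHC24, DRAXIN, CD276 and PFDN2.

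MRC2 was again low after serum, at 17.1 and 15.5 CPM against 29.5 and 34.4 CPM, a log2 fold change of -0.97. HNRNPA1 was at 217 and 271 CPM after serum against 277 and 258 CPM, where the groups overlapped (-0.14). FOSL1 was at 178 and 184 CPM against 195 and 168 CPM after serum, and GINS1 at 40.4 and 47.1 CPM against 44.7 and 45.3 CPM, both with overlapping groups. SAT1, a polyamine-degrading enzyme, fell by 0.60 before serum and had a log2 fold change of 0.07 after it, and MT1F, a metallothionein, fell by 0.90 (0.60 with no GC correction) and had 0.03 after it. The difference between the effects before and after serum passed for 0 genes (edgeR, exon counts), with 2985 (12%) at an unadjusted p under 0.05. Among them were 27 of the 72 and 20 of the 29. These genes were picked by their effect before serum, which is part of this difference. Their counts, and their smaller medians after serum, therefore cannot tell a change with serum from that choice. Across the 11266 genes of at least 3 log2 CPM, effects before and after serum had a Pearson r of -0.11 and a Spearman rho of -0.07, a description across genes that are not independent.

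**Figure D4:**
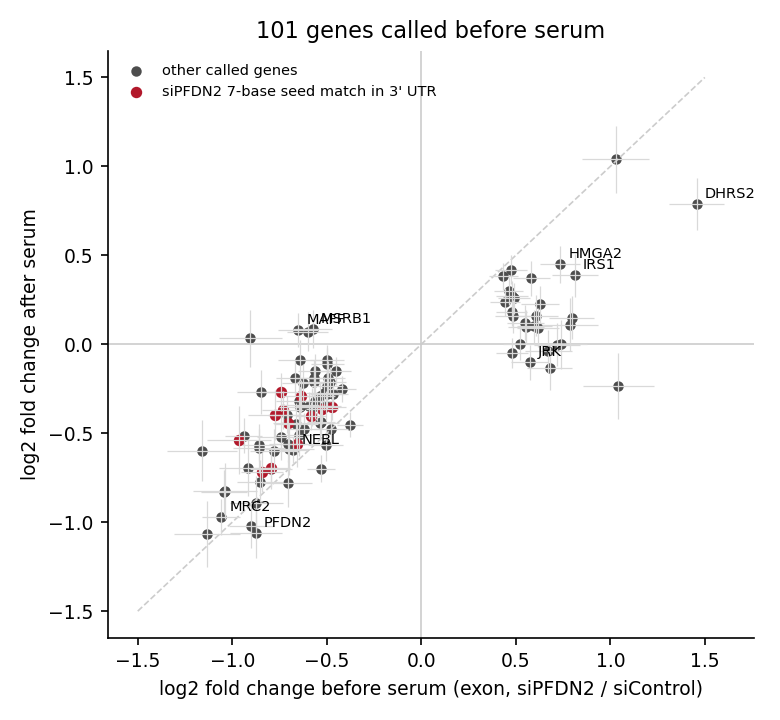
Log2 fold change of exon counts in siPFDN2 relative to siControl before serum (x axis) and after serum (y axis) for the 101 genes called before serum, with 1 point per gene, bars of 1 SE, a dashed line of equal change, and red points for genes that hold the siPFDN2 string in their 3′ UTR. Of the 72 lowered genes 68 stay below 0 after serum, including all 12 with the string, and of the 29 raised genes 22 stay above 0.

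The other prefoldin subunits did not pass the test. PFDN4 and VBP1 had log2 fold changes of -0.34 and -0.35, PFDN1 of -0.09, PFDN5 of 0.05 and PFDN6 of 0.17. PFDN2 was thus the 1 of 6 subunits called, and the list had a median of -0.21 beside -0.01 over all genes tested. After serum the list's median was 0.12 beside -0.02. Of the 8 TRiC subunits 0 were called (median -0.09, with 0.07 in replicate 1, -0.26 in replicate 2 and 0.21 after serum). Of the 13 actins and tubulins, the main clients of prefoldin and TRiC, 0 were called. Their median was 0.06, and 0.33 with no GC correction. In this list 6 lay above both controls and 1 below, against 19% and 20% of all genes tested. TUBB, a beta-tubulin, stood at 1131 and 1202 CPM against 953 and 889 CPM, a log2 fold change of 0.34 with an adjusted p of 0.103. Heat shock genes (0 of 19) had a median of 0.10 and unfolded protein response genes a median of -0.05, with 1 of 18 called, SDF2L1, an endoplasmic reticulum chaperone cofactor, at 14.3 and 15.9 CPM against 8.38 and 9.07 CPM (0.79, and 1.33 with no correction). For prefoldin, TRiC and heat shock genes the sign of the median was the same under all 4 scalings tried, and for unfolded protein response genes it was positive without the GC correction (0.04).

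Of 22 mitotic genes 1 was called (CENPE), and 20 had a positive log2 fold change. In 13 both siPFDN2 libraries were above both controls, against 19% of all genes tested, and the list's median was 0.19. It was 0.29 in replicate 1, 0.08 in replicate 2 and 0.28 after serum. PLK1, the mitotic polo kinase, stood at 55.5 and 79.7 CPM against 37.3 and 34.2 CPM, a log2 fold change of 0.92 (SE 0.18) that missed the threshold at an adjusted p of 0.0615. TPX2, a spindle assembly factor, stood at 221 and 248 CPM against 176 and 176 CPM (0.41, adjusted p = 0.059). CENPF, a kinetochore protein, stood at 249 and 287 CPM against 166 and 198 CPM (0.56, adjusted p = 0.143). These groups did not overlap, while TTK and NUSAP1 had the only negative values in the list. Of 26 DNA replication genes 1 was called (GINS1), with a median of 0.07. POLA1, the catalytic subunit of DNA polymerase alpha, stood at 66.4 and 66.6 CPM against 53.6 and 54.4 CPM (0.30, adjusted p = 0.0942).

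Genes that FOXO factors switch on when insulin signalling is low had a median of -0.15, with 1 of 14 called (SESN3). Of the 14, 6 lay below both controls, against 20% of all genes tested, and the median after serum was -0.31. PIK3IP1, an inhibitor of PI3 kinase, stood at 1.93 and 1.98 CPM against 3.56 and 3.24 CPM (log2 fold change -0.80, adjusted p = 0.0746). ARRDC4, an arrestin-like protein, stood at 6.31 and 5.05 CPM against 7.76 and 9.50 CPM (-0.60, adjusted p = 0.0771). CCNG2, an atypical cyclin, stood at 22.4 and 21.1 CPM against 27.7 and 27.8 CPM (-0.35, adjusted p = 0.0841). All 3 lay below both controls without passing. Wnt feedback genes had a median of -0.21, all 8 tested members had a negative log2 fold change and 1 was called (AXIN2). NOTUM, a secreted Wnt deacylase, stood at 4.08 and 3.76 CPM against 5.48 and 6.44 CPM (-0.61, adjusted p = 0.0768).

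Targets of p53 had a median of -0.13 with 0 of 23 called, and the median after serum was -0.008. Before serum 13 of 23 lay below both controls and 5 above, against 20% and 19% of all genes tested. BBC3, which encodes the death-promoting protein PUMA, stood at 16.6 and 12.3 CPM against 22.6 and 22.5 CPM (log2 fold change -0.65, adjusted p = 0.053). CDKN1A, which encodes the cell cycle inhibitor p21, stood at 207 and 186 CPM against 203 and 202 CPM, with overlapping groups. Of the 40 immediate-early genes FOSL1 rose and MAFF fell, and the median was 0.01. Interferon-stimulated genes, which report a response to foreign RNA, had a median of -0.00 (0.06 with no GC correction) with 0 of 22 called. Without the GC correction the median was -0.06 for p53 targets, -0.26 for FOXO genes, -0.09 for Wnt feedback genes and 0.10 for mitotic genes, so these signs did not change.

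Genes of the splicing machinery showed no call. The 28 core spliceosome genes had a median of 0.08, and 9 of them had a negative log2 fold change. In this list 12 lay above both controls and 2 below, against 19% and 20% of all genes tested. SF3B2, a subunit of the U2 particle, stood at 202 and 417 CPM against 192 and 172 CPM (log2 fold change 0.77, adjusted p = 0.203), and SF3A1, another U2 subunit, at 92.0 and 157 CPM against 87.7 and 80.6 CPM. SRSF4, an SR protein, stood at 34.0 and 60.8 CPM against 28.5 and 27.6 CPM (0.75, adjusted p = 0.192). In all 3 genes most of the difference lay in replicate 2 of siPFDN2. The 19 SR proteins and their kinases had a median of 0.13, which was -0.11 without the GC correction. Genes for the RNA polymerase II tail and elongation factors had a median of 0.10 with 0 of 28 called.

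The remaining lists had 0 members called. Their medians were -0.04 for 10 prefoldin-like and R2TP genes, 0.00 each for 8 tubulin cofactors and 16 cytoskeletal targets of SRF, -0.05 for 12 G1 cyclins and inhibitors, -0.02 for 18 genes of cholesterol synthesis, 0.04 for 24 of glycolysis and hypoxia, -0.09 for 20 keratins and epithelial genes, -0.08 for 31 proteasome genes and 0.03 for 10 nuclear long noncoding RNAs. With no GC correction the medians were 0.09 for prefoldin-like genes, -0.01 for tubulin cofactors, 0.23 for SRF targets and 0.11 for cholesterol synthesis. They were 0.18 for glycolysis and hypoxia, 0.11 for keratins and -0.10 for nuclear long noncoding RNAs. The prefoldin-like, tubulin cofactor, cholesterol, keratin and noncoding RNA medians changed sign.

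A few lists differed mainly between the siPFDN2 replicates. The 13 mitochondrially encoded genes had a median of 0.14 in replicate 1 and 1.19 in replicate 2, and 0 were called. MT-ND5, a complex I subunit, stood at 159 and 822 CPM against 231 and 101 CPM, so that replicate 1 lay between the controls. The 77 ribosomal protein genes had a median of 0.05 in replicate 1 and -0.30 in replicate 2. Within them RPLP1, an acidic stalk protein, was at 216 and 755 CPM against 155 and 124 CPM, and 0 were called. These values have the GC trend removed. Over both replicates the median was 0.65 for mitochondrially encoded genes and -0.11 for ribosomal protein genes. With no GC correction it was 0.49 and -0.14. After serum, with the GC trend removed, it was -0.12 and 0.24. Why the replicates differed was not tested.

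**Figure D5:**
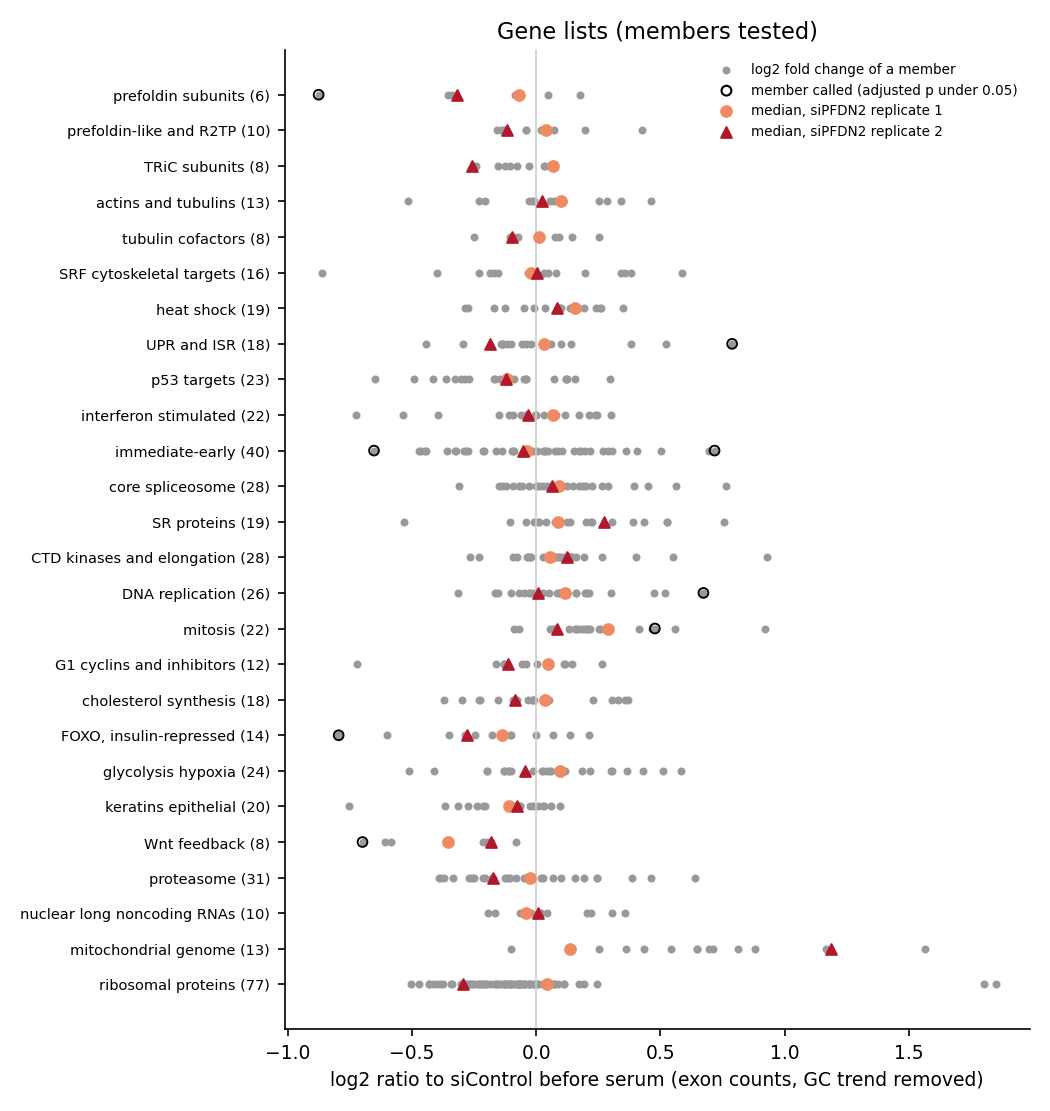
Log2 ratio to siControl before serum in exon counts (x axis, GC trend removed) for each gene list (rows, with the number of members tested): grey points are members, black rings mark members called, and the circle and triangle are the list's median in siPFDN2 replicate 1 and replicate 2. The mitochondrially encoded genes differ most between the replicates, at 0.14 and 1.19.

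Intron counts, taken as gene-body minus exon counts in genes that overlap no other, gave 0 calls in 4890 genes (edgeR), with 319 (6.52%) at an unadjusted p under 0.05. Without replicate 1 of siPFDN2 there were 61 calls, and without replicate 2 there was 1. Counts outside exons made up 3.97% and 4.73% of all counts of such genes in siPFDN2 and 3.95% and 4.22% in siControl. The means were 4.35% ± 0.536 and 4.08% ± 0.186 (SD, n = 2), a difference of 0.264 percentage points with an exact two-sided permutation p of 0.667. Replicate 1 of siPFDN2 lay between the controls and replicate 2 above both. These shares and those by gene length had no GC correction, and replicate 2 is the library with the strong GC trend. Among 5 equal bins of gene length, in the longest genes (59.0 to 622 kb) the share was 13.3% and 16.5% against 13.1% and 14.1%, and in the shortest genes 1.53% and 1.72% against 1.62% and 1.32%. In the other 3 bins replicate 2 lay above both controls and replicate 1 between or below them.

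The share of counts outside exons, tested gene by gene, passed for 0 of 3338 genes in edgeR, with 85 (2.55%) at an unadjusted p under 0.05. PTAFR, the receptor for platelet-activating factor, had the smallest p among genes with a higher share, at 12.5% and 23.2% against 6.82% and 8%. GAL, the neuropeptide galanin, followed a few genes later at 5.83% and 9.42% against 3.88% and 4.23%. SCAMP3, a membrane trafficking protein, had the smallest p among genes with a lower share, at 1.42% and 1.13% against 2.74% and 2.71%. SNRPA1, a U2 particle protein, was at 19.9% and 17% against 25.9% and 26.3%. Groups did not overlap in these 4 genes, and their adjusted p was 1.00 in each. They were picked by small p in this same test, so the lack of overlap largely comes with that choice. Its share over all genes tested is not given, and the percentages have no GC correction. Of the 72 genes lowered in exon counts, introns could be measured in 20, and 12 of these had a negative intron log2 fold change, with a median of -0.19. Of the 29 raised genes it could be measured in 11, with 9 positive and a median of 0.23. Over 2841 genes measured in both, exon and intron effects had the same sign in 59.3%.

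The 72 lowered genes had a median length of 51.9 kb and a median GC content of 46.5%, and the 29 raised genes 15.5 kb and 50.3%. Over all genes tested these medians were 15 kb and 48.6%, and over those of at least 3 log2 CPM 31.3 kb and 48.1%.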

How the data were processed

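RNA-seq libraries of HCT116 cells were compared as 2 siPFDN2 against 2 siControl libraries before serum, with groups and replicate numbers read from the titles. The authors deposited whole-number fragment counts per gene over gene bodies and over exons. Per the file headers these came from featureCounts 1.5.2 on Ensembl release 87 of GRCh38, with both ends mapped, a fragment that overlaps more than 1 gene assigned to every one of them, and strand ignored. The submitters' processing notes also list HISAT2, kallisto 0.43 and GRCh38.p7 with no role. The authors also deposited estimated counts per transcript, which were rounded and summed per gene (159196 of 173259 transcripts matched). Of each count file, 6 further columns match no sample and were not used.

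Tests were run in R 4.3.3 with edgeR 4.0.16. After a filter on low counts (filterByExpr), libraries were scaled by TMM and 1 model of 6 groups was fitted to all 12 libraries (glmQLFit, robust). Each library's GC trend (lowess, span 0.3, 3 iterations, on the GC content of the longest GENCODE release 29 transcript, known for 99.0% of genes tested) was put in the offset. Calls are two-sided with a false discovery rate (Benjamini-Hochberg) under 0.05. Unless stated otherwise, CPM are counts relative to the TMM-scaled library total with the GC trend removed. A prior count of 2 was used on the log2 scale. Intron counts are gene-body minus exon counts in the 24100 genes that overlap no other, and the intron share was tested as an intron-by-group term with the library as a block. Depth was 85996195 to 101654340 gene-body counts per library, and each group held 2 libraries.

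Named genes are PFDN2, members of gene lists, genes called in any fit, up to 12 genes in each direction with the smallest gene-body p that met a level of 3 log2 CPM and did not overlap between groups, and up to 5 in each direction by the intron share. The comparison and the gene lists were chosen with earlier results of these data known. Same-numbered replicates of siPFDN2 and siControl deviated with a correlation of -0.17, so the numbers were not taken to pair libraries. Alternatives were other scalings, filters and tools (DESeq2 1.42.0, limma 3.58.1), no GC correction, replicate blocks and leaving out libraries. Sequences and 3′ UTRs came from GENCODE release 29 annotation and transcripts, and guide strands from the labels. The values of 1 gene are not reported here.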

Additional observations from a re-analysis of the deposited data

Results flagged for a closer look

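In 3 of the 101 genes called in exon counts, both siPFDN2 libraries lay on 1 side of both siControl libraries before serum and on the other side after it. MAFF, a small MAF transcription factor, stood at 5.84 and 4.63 CPM before serum in siPFDN2, with 7.68 and 8.65 CPM in siControl, and after serum at 96.6 and 101 CPM against 93.3 and 94.1 CPM. With no GC correction the groups overlapped before serum, at 5.61 and 7.89 CPM against 7.87 and 8.43 CPM, and the log2 fold change then was -0.27 in place of -0.65. With the correction its log2 fold change after serum was larger than before by 0.73. MSRB1, a methionine sulfoxide reductase, stood at 11.9 and 9.84 CPM against 16.4 and 15.9 CPM in starved cells, then at 12.8 and 13.5 CPM against 12.2 and 12.6 CPM after serum, a difference of 0.66. JRK stood at 31.4 and 39.2 CPM against 24.0 and 23.5 CPM in starved cells, then at 21.6 and 20.6 CPM against 22.7 and 22.5 CPM after serum, a difference of -0.67. The edgeR test of the difference gave an adjusted p of 0.414 for each of the 3. Among the genes called, 66 of the 72 lowered and 17 of the 29 raised lay on the same side in both comparisons.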

How the results depend on the processing

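Chosen after seeing the data were the crossed pairing and, on exon counts, the alternatives other than no GC correction, library size scaling, the 4 libraries alone, the replicate block with the GC trend removed and leaving out 1 of the 4 libraries compared. For exon counts, 101 genes were called, and 0 without the GC correction (3451 at an unadjusted p under 0.05), 0 in limma-voom with sample quality weights (1579), 0 in the 4 libraries alone (1399) and 0 in a replicate block without GC correction (3258). DESeq2 called 806 and edgeR with no filter on low counts 1652. The labels give replicate numbers but no pairing, and the replicate block with the GC trend removed called 37 and a crossed pairing 57. Leaving out 1 library gave 2 to 6549 calls. Upper-quartile scaling (114), library size (84), size factors (104) and a minimum of 10 counts (100) stayed within 1.5 times. For gene-body counts, 5 genes were called, and 0 without the GC correction (3156 at an unadjusted p under 0.05), with quality weights, in the 4 libraries alone (1230) or in a replicate block without GC correction. Library size gave 3, DESeq2 319, no filter 1001, the replicate block 1, the crossed pairing 2, and leaving out 1 library 0 to 5504, the highest without replicate 1 of siPFDN2. Intron counts gave 1 call under library size scaling and 0 to 61 with 1 library left out. The intron share gave 0 calls under each alternative run, including each of the 4 libraries left out.

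PFDN2 kept its sign under each alternative. In exon counts its log2 fold change was -0.75 without the GC correction (adjusted p = 0.359), -0.87 with quality weights (0.772), -0.88 in the 4 libraries alone (0.742), -0.88 with the replicate block (0.0521) and -0.75 with the block and no correction (0.377), and lay between -1.004 and -0.76 with 1 library left out. Over the gene body it passed in DESeq2 (-0.60, adjusted p = 0.00507), with no filter (-0.53, 0.0316) and in summed transcript estimates (-0.93, 0.0338), and lay between -0.66 and -0.57 with 1 library left out. The share of counts outside exons differed by 0.264 percentage points, by 0.00724 with overlapping genes included and by 0.375 as a median over genes. Why these calls changed was not tested. The planned GC content of whole gene bodies was not run, as no genome was used here.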
